A study of Mus musculus with 8 samples.

Results

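The genes described here encode the ATP-driven pumps for calcium, protons and copper and the lipid flippases of the cochlea. They were chosen by name, as every probe set that named 1 gene alone with a symbol of the families Atp2a to Atp2c, Atp4, Atp6, Atp7 to Atp11, Atp12a or Atp13a, a rule that uses no signal. The rule found 124 probe sets of 54 genes, among 34958 such probe sets of 18194 genes. Soft tissue of the cochlea came from 8 CBA/CaJ mice and held spiral ligament, organ of Corti and modiolus, with the ears of each mouse pooled and 1 Affymetrix Mouse 430 2.0 array used for each mouse. All 8 mice form 1 group of normal cochlea, and every mouse had received urethane at 300 mg/kg and a saline perfusion; no sex, age or batch is given. There was therefore no contrast between groups, and the data show which pumps gave a signal and how the signals varied between mice, a variation that includes that of the assay.

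Most of these proteins are P-type ATPases, which take a phosphate from ATP onto a conserved aspartate in each transport cycle. SERCA pumps load calcium into the endoplasmic reticulum, PMCA pumps push it out across the plasma membrane, SPCA pumps fill the Golgi with calcium and manganese, the copper pumps load copper enzymes and export copper, and the flippases move phospholipids to the cytosolic leaflet of a membrane. The V-ATPase is built differently, as a rotary machine in which the V1 sector in the cytosol splits ATP and the V0 sector in the membrane carries protons. In the inner ear a PMCA of the hair bundle, Atp2b2, is known for its loss in deaf mice, and the V-ATPase subunits ATP6V1B1 and ATP6V0A4 are known from human renal tubular acidosis with deafness.

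Values are MAS5 signals in arbitrary units, given for 1 mouse or as the mean ± SD over 8 mice (n = 8), with the SD of log2 signals as the measure of spread. Mouse numbers are names without an order. A signal depends on the probe set's own sequences, so levels of 2 genes are not RNA amounts to be compared. Background was set per array at the 95th percentile of 72 olfactory, vomeronasal and trace amine receptor genes (81 probe sets), and this threshold lay between 37.3 and 61.5. A gene was read by its brightest probe set and called detected when it was above the threshold on all 8 arrays, and of the 72 receptor genes themselves 3 were detected. Any 2 arrays correlated at r = 0.945 to 0.960 and no 2 were identical. The number of arrays limits the precision. Among markers of the tissue, 10 of 10 measured for spiral ligament fibrocytes and 9 of 9 for strial marginal cells were detected. So were 12 of 14 for hair cells and 12 of 14 for spiral ganglion neurons. Of 4 stomach and kidney genes listed as absent, Atp4a, Gkn1, Aqp2 and Umod, 0 were detected, and Aqp2 was above background on 7 arrays. Atp4a is also a gene of the set described, so it is no separate control. Markers of bone and blood cells were in the tissue as well: 5 of 5 measured for osteoblasts, 10 of 10 for macrophages, 6 of 8 for neutrophils and 1 of 5 for erythroid cells were detected. The summed signal of the neutrophil markers ran from 1928 in mouse 7 to 29478.5 in mouse 3. That of the erythroid markers ran from 1313 in mouse 7 to 11834 in mouse 6. The part of these cells in the pump signals was not tested. The neuron markers were lowest in mouse 6, with a summed signal of 14080 there against 23769 to 36163 in the others. The skeletal muscle markers were highest in mouse 5, with a sum of 20833 against 4108 to 8446 in the others. Pvalb, which is in the hair cell list too, made up much of the lower sums, with 3141.6 of 4107.7 in mouse 6 and 6490.2 of 7984.4 in mouse 8.

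Of the 54 genes, 40 were detected, 6 were above background on some arrays and 8 on none; of all 18194 genes 65.0% were detected and 22.2% were above background on no array. Of the 124 probe sets, 82 were above background on all arrays, against 58.6% of all probe sets naming 1 gene. The housekeeping pumps were bright in every mouse, as with Atp2a2, whose lowest signal was 5663. The genes not detected included those of the gastric acid pump, Atp6v1b1 and Atp6v0a4 of the V-ATPase, known from kidney, and the SERCA of skeletal muscle. Atp4a, Atp4b, Atp12a, Atp6v1b1, Atp6v0a4 and Atp2b4 were each read by 1 probe set only. For them absent RNA and a probe set that fails cannot be told apart. Markers of the tissue could be missed too: Pou4f3 and Cdh23 of hair cells were above background on 0 arrays. So were Tyrp1 and Pmel of strial intermediate cells, where Dct had 10872.

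**Figure D1:**
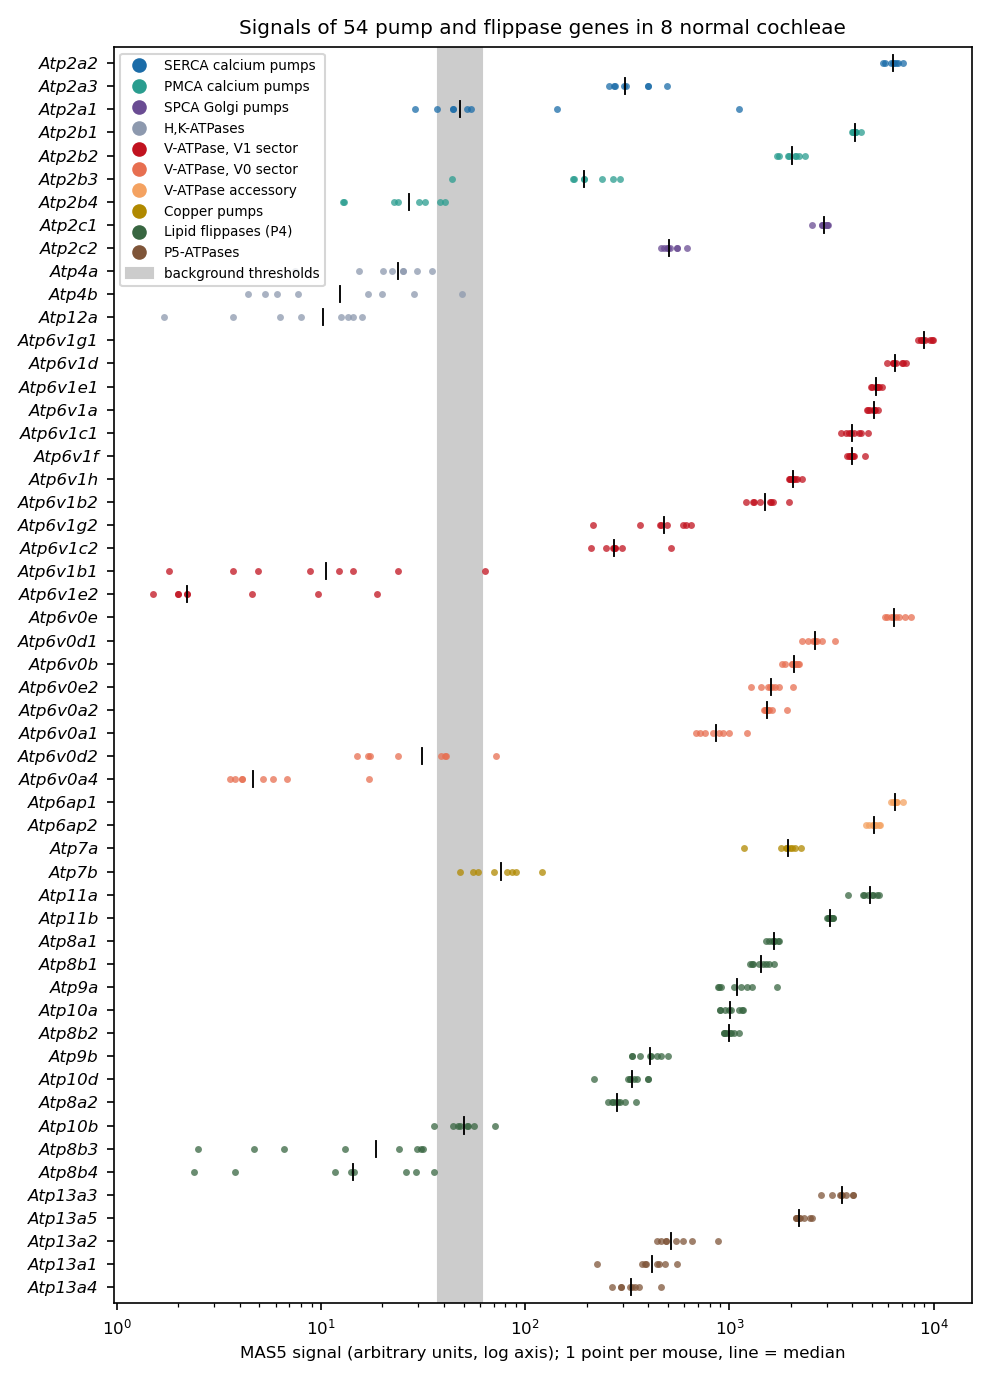
MAS5 signal (log axis, arbitrary units) of the 54 genes, with 1 point for each of 8 mice, a line at the median, colors for the classes and a grey band over the array thresholds of 37.3 to 61.5. Atp6v1g1 lies near 9119, the H,K-ATPases lie within or left of the band, and Atp2a1 has 1 point at 1112.2.

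Among the SERCA pumps, Atp2a2, the form present in nearly all cells, was the brightest at 6309 ± 453, with a lowest, median and highest signal of 5663, 6339 and 7032. Atp2a3, a SERCA known from blood and secretory cells, reached 339 ± 83.6 and had a spread of 0.34 on the log2 scale. Its signals were 494.4 in mouse 7 and 256.0 to 400.9 in the others. Atp2a1, the SERCA of fast skeletal muscle, had 54.6, 28.8, 143.9, 51.8, 1112.2, 44.2, 44.3 and 37.1 in mice 1 to 8. It was above background on 4 arrays, and mouse 5 stood far above the rest. In the same mouse Mylpf, a fast muscle myosin light chain, had 3034.5 against 62.3 to 262.7 in the others. Of the 14 measured muscle markers, 5 were detected, 11 were highest in mouse 5 and 13 were above background there; the part of muscle in the Atp2a1 signal was not tested. In bulk tissue, fewer cells of a type and less RNA per cell cannot be told apart.

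The plasma membrane pumps were led by Atp2b1, a form found in most cells, at 4119 ± 128, and by Atp2b2, the pump of the hair bundle, at 2012 ± 216. The 8 signals of Atp2b1 lay between 3976 and 4398, a log2 spread of 0.04. Those of Atp2b2 were 2354.8, 2115.3, 1947.8, 1715.8, 1933.0, 1755.1, 2088.4 and 2184.1 in mice 1 to 8, a log2 spread of 0.16. The other probe sets of Atp2b2 were dimmer, 1 at 203 ± 27.1 and 1 above background on no array. Atp2b3, a form known mainly from neurons, had 292.4, 237.4, 193.9, 267.6, 193.8, 43.8, 172.7 and 172.1 and was below background in mouse 6 alone. Mouse 6 was also lowest for 11 of the 14 neuron markers, of which 12 were detected; their part in the Atp2b3 value was not tested. Atp2b4 was above background on no array, at 26.7 ± 10.5.

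Both SPCA pumps were detected. Atp2c1, the general Golgi pump, reached 2882 ± 159, with 2535.3 in mouse 5 and 2830.3 to 3024.1 in the others. These are signals of its brightest probe set, and its other 2 detected probe sets were lowest in mouse 1 instead. Atp2c2, known from secretory epithelia, reached 522 ± 52.4. The 3 H,K-ATPase genes were above background on no array: Atp4a and Atp4b, the subunits of the gastric acid pump, had 22.6 ± 8.47 and 17.3 ± 15.4, and the non-gastric Atp12a had 9.50 ± 5.30.

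The partners of the calcium pumps were measured beside them. Of 17 measured calcium handling genes 12 were detected, among them Bsg and Nptn, the basigin and neuroplastin that accompany PMCA pumps, at 5496 ± 637 and 5588 ± 620. Pln, the phospholamban that restrains SERCA, was detected at 239 ± 33.6. Sln, its relative sarcolipin, was above background on no array, and Ryr1, the calcium release channel of skeletal muscle, was above it on 1 array. Of the sodium-calcium exchangers Slc8a3 was detected at 1119 ± 354, while Slc8a1 and Slc8a2 were above background on 2 and 6 arrays.

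Of 20 V-ATPase subunit genes 16 were detected, 10 of 12 in the V1 sector and 6 of 8 in the V0 sector. The ubiquitous forms were bright: Atp6v1g1, a stalk subunit, reached 9119 ± 569, Atp6v1d, of the central shaft, 6611 ± 480, and Atp6v0e, a small membrane subunit, 6562 ± 673. Both accessory proteins were detected, with Atp6ap1 at 6511 ± 269 and Atp6ap2, also known as the prorenin receptor, at 5106 ± 274. The forms known from kidney and other specialized cells were dim. Atp6v1b1, the B subunit named beside Atp2b1 and Atp2b2 as a marker of this gene set, had 1.8, 14.3, 23.8, 4.9, 63.8, 3.7, 12.3 and 8.8 in mice 1 to 8. It was above background on the array of mouse 5 alone, so the signal of its only probe set goes against its use as a marker here.

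The subunit isoforms can be set side by side, each by its own level. For the A subunit, which binds ATP, Atp6v1a had 5016 ± 212. For its partner B, Atp6v1b2, the form of most cells, had 1503 ± 242 where Atp6v1b1 had 16.7 ± 20.3. For C, Atp6v1c1 had 4075 ± 403 and Atp6v1c2 had 295 ± 92.4. For E, Atp6v1e1 had 5235 ± 207, while Atp6v1e2, known from testis, was above background on no array at 5.38 ± 6.07. For G, Atp6v1g2, the form known from neurons, had 481 ± 145. Of the small membrane subunit e, Atp6v0e2 had 1612 ± 226 beside the Atp6v0e level given above. Of the a subunits of the V0 sector, Atp6v0a1 had 878 ± 175, Atp6v0a2 had 1579 ± 142 and Tcirg1, the a3 form known from osteoclasts, had 633 ± 74.1. Atp6v0a4, the kidney form, was above background on no array at 6.31 ± 4.50. Atp6v0d1 had 2659 ± 300.4, whereas Atp6v0d2, known from osteoclasts and kidney, had 17.3, 23.9, 41.1, 40.3, 71.8, 38.5, 17.0 and 15.1 and was above background in mouse 5 only.

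By the brightest probe set, mouse 5 thus had the highest signal of Atp6v1b1, Atp6v0d2 and Atp6v1c2. The threshold of that array was 48.2, close below the 63.8 of Atp6v1b1. A second probe set of Atp6v0d2 was above background on no array and highest in mouse 6, at 26.1 against 20.8 in mouse 5. Atp6v1c2 had 210.7, 275.3, 271.6, 274.3, 514.9, 297.1, 269.1 and 248.0 in mice 1 to 8. In mouse 5 the osteoclast markers had their highest sum, 8728, followed by 8417 in mouse 6, with a lowest sum of 7238 in mouse 7. Ostm1 alone gave 4996.3 (mouse 7) to 5384.7 (mouse 4) of these sums. Of these 12 markers 8 were detected, and 3 were highest in mouse 5, as many as in mouse 1 and in mouse 6. Acp5, the tartrate-resistant acid phosphatase, had 336.4 in mouse 5 and 66.0 to 196.5 in the others, while Itgb3, an integrin of osteoclasts, was highest in mouse 6 at 688.9. Ocstamp, Dcstamp, Calcr and Oscar were above background on no array. The muscle markers were highest in mouse 5 as well, and the part of either cell type in these values was not tested. Of 5 measured markers of pendrin-expressing and ionocyte-like cells, Slc26a4, Car2 and Car12 were detected, while Foxi1, the transcription factor of V-ATPase-rich cells, and Rhcg were above background on no array, at 7.19 ± 6.21 and 5.08 ± 4.57. Of the 17 V-ATPase partners all but Foxi1 were detected. Rab7, a late endosome GTPase, had 9437 ± 596, Ostm1, the partner of the chloride transporter Clcn7, had 5203 ± 113, and Tfeb, a transcription factor of lysosomal genes, had 105 ± 25.6.

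Promoter sequences are shown because lysosomal genes, V-ATPase subunits among them, are known to carry the CLEAR motif, which has CACGTG at its center and is bound by TFEB. Windows from 250 bases before to 50 after the gene start, from RefSeq on GRCm38.p6, were available for 37 of the 54 genes, in 47 windows, and a gene was counted when any of its windows held the letters. The letters TCACGTGA, a palindrome, were found for 5 of the 37 genes (13.5%), against 1.12% of 27025 genes. Of 11 detected V-ATPase subunits with a window, 3 held them. The shorter CACGTG, which lies inside it, was found for 6 (16.2%) against 8.09%, the sixth being Atp6v0b. The longer form with a further G before and C after it was found for 1 gene, Atp2b1, against 0.370%. Of the other letters searched on both strands, GGGCGG was found for 26 genes (70.3%, against 38.2%), CCAAT for 11 (29.7%, against 41.1%) and TATAAA for 1 (2.70%, against 15.7%). These shares are descriptions, and a match is not a site of binding. The 47 windows had a median GC content of 59.3%, against 52.7% in all windows. The 5 genes' windows with TCACGTGA, in capitals, and that of the named marker Atp6v1b1, which lacks CACGTG, read from 5′ to 3′ along the gene's own strand.
Atp6v1a, chr16:44139210-44139509, minus strand, motif center letters 131 bases upstream of the start: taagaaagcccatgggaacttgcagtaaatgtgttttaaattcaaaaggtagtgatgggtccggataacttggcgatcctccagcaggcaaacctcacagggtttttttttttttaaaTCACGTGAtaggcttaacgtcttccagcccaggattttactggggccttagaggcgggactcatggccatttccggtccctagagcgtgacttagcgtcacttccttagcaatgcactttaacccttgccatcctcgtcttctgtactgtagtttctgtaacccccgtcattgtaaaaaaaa
Atp6v0d1, chr8:105566015-105566314, minus strand, 3 bases upstream: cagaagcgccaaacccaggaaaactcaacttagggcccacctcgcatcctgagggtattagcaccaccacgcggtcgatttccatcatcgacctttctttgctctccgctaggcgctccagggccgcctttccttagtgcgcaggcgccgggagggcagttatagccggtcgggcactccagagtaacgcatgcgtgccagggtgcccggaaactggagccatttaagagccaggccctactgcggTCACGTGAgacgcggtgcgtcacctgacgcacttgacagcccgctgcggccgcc
Atp6v0e, chr17:26676146-26676445, plus strand, 4 bases downstream: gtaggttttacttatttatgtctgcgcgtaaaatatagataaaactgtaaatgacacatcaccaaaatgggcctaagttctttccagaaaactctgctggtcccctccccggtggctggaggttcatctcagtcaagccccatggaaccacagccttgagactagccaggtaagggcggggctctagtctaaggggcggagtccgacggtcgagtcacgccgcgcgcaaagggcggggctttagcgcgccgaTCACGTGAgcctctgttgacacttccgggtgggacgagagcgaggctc
Atp2b1, chr10:98914392-98914691, plus strand, 9 bases downstream: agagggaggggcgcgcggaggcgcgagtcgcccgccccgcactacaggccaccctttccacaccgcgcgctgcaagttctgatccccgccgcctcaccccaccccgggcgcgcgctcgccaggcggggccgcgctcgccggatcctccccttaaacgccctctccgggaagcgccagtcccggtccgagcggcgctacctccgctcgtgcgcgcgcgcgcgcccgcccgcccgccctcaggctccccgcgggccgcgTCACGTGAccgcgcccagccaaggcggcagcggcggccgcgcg
Atp7a, chrX:106026974-106027273, plus strand, 87 bases upstream: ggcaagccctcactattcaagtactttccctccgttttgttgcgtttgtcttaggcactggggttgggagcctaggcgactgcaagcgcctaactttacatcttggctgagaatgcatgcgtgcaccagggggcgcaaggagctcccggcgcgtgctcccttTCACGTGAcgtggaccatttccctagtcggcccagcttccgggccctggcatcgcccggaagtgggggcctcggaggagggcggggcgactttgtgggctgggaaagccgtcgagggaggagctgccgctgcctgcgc
Atp6v1b1, chr6:83742767-83743066, plus strand: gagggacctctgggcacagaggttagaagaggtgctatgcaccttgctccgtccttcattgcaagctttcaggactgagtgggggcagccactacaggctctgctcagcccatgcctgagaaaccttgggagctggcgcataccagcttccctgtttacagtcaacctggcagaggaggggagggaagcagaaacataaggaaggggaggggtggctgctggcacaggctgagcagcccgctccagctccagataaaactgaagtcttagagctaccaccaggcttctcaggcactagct

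Of the copper pumps Atp7a, which exports copper and loads secreted enzymes, was detected at 1889 ± 317. Its signals were 1180.3, 1897.7, 1909.9, 2021.2, 1790.9, 1978.4, 2101.3 and 2234.4 in mice 1 to 8, so mouse 1 stood below the other 7. A second probe set of the gene was also lowest in mouse 1, at 143.1 against 226.7 to 346.7. Atp7b, the copper pump of the liver, was close to background, between 48.2 and 120.9, and above it on 7 arrays. Of 14 copper handling genes 13 were detected. Atox1, the chaperone that hands copper to these pumps, had 3003 ± 265, and the copper enzymes Cp (ceruloplasmin) and Tyr (tyrosinase, of melanin synthesis) had 8365 ± 469 and 3545 ± 215. Slc31a1, the copper importer, had 2017 ± 315 and its lowest signal, 1374.7, in mouse 1. The list as a whole went otherwise. Of its 14 genes mouse 1 was highest for 6, among them Atox1, Cp, Tyr and the undetected Dbh, and lowest for 2, including Slc31a1. Dbh, dopamine beta-hydroxylase, was above background on no array.

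Of 13 flippase genes 10 were detected. Atp11a and Atp11b, phospholipid flippases of the plasma membrane and endosomes, had 4796 ± 507 and 3115 ± 79.8, and Atp8a1, a phosphatidylserine flippase, had 1639 ± 79.4. Atp11b varied little, with all 8 signals between 3002 and 3218. Atp9a, of the endosomes, varied more (log2 spread 0.33) and had 1712.4 in mouse 1 and 878.3 to 1292.5 in the others. Atp10b was above background on 4 arrays, between 35.6 and 71.1, and Atp8b3 and Atp8b4 on none. Tmem30a and Tmem30b, the CDC50 subunits that most flippases need to leave the endoplasmic reticulum, were detected at 4053 ± 312 and 1297 ± 162. Of 8 measured partners and scramblases 7 were detected; Xkr4 was above background on 6 arrays.

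All 5 P5-ATPases were detected, with Atp13a3, a polyamine transporter, at 3539 ± 412, Atp13a5 at 2265 ± 164 and Atp13a2, the lysosomal polyamine exporter known as PARK9, at 570 ± 145. Atp13a1, which removes misplaced proteins from the endoplasmic reticulum membrane, had the widest log2 spread in the class (0.39), with 443.9, 556.0, 375.1, 225.8, 485.3, 388.1, 451.6 and 391.3 in mice 1 to 8. Mouse 4 was the low one.

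The brightest probe set did not always speak for the others of a gene. In 7 genes, Atp2b2, Atp2c1, Atp6v1h, Atp8a1, Atp8a2, Atp8b2 and Atp13a4, 1 probe set was above background on all arrays and another on none. For Atp8a1 the signals of such a pair were 1639 ± 79.4 and 15.8 ± 6.52, and for Atp6v1h 2060 ± 103 and 25.2 ± 12.8. For these genes detection rests on the brighter probe sets.

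The spread between mice differed with the signal. Over the 40 detected genes the median log2 SD was 0.14, against 0.18 over all 11824 detected genes, and 13 of the 40 (against 12.9% of all) had an SD under 0.1. The 40 genes were also brighter, with a median signal of 1951 against 722, and bright genes vary less. At signals of 2000 and over the median SD was 0.10 for 20 genes, against 0.13 for all genes that bright. From 500 to 2000 it was 0.174 for 12 genes, against 0.168, and below 500 it was 0.30 for 8 genes, against 0.24. The median SD by class was 0.10 for V1, 0.15 for V0, 0.07 for the accessory proteins, 0.22 for SERCA, 0.10 for PMCA, 0.11 for SPCA, 0.15 for flippases and 0.24 for P5-ATPases. An SD over 0.5 was found for 1 of the 40, Atp6v1g2, against 3.03% of all detected genes.

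**Figure D2:**
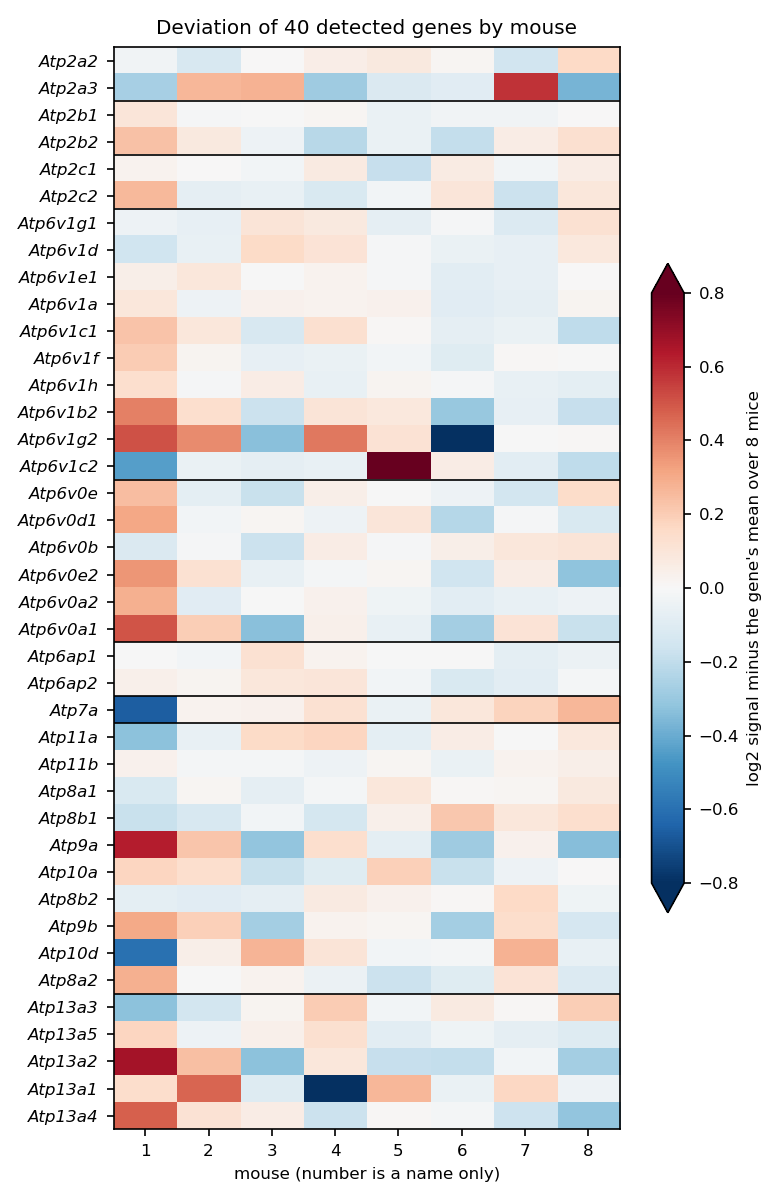
Deviation of the log2 signal of the 40 detected genes from the gene's own mean, by mouse (columns) and in the order of the classes (black lines between them). Atp6v1g2 is lowest in mouse 6, Atp6v1c2 highest in mouse 5 and Atp13a1 lowest in mouse 4; 20 of the 40 genes are highest in mouse 1.

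Atp6v1g2 had 650.8, 595.5, 363.1, 614.0, 494.9, 213.6, 456.5 and 461.1 in mice 1 to 8. The mice fell in the same order by the neuron score, the mean log2 deviation of the 12 detected neuron markers. Pearson's r was 0.98 (two-sided exact permutation p = 2.48e-05, the smallest that the 40320 pairings allow) and Spearman's rho 1 (exact permutation p = 4.96e-05), and r was 0.90 without mice 1 and 6, the 2 farthest from the median score. After Benjamini-Hochberg adjustment over all 165536 pairs of 11824 genes and 14 marker scores the permutation p was 0.241 for r and 0.328 for rho, so the relation did not pass. Among the 560 pairs of the 40 genes and 14 scores 0 passed by either measure, and 0.00% of all pairs did. Even the smallest p that the pairings allow was 0.241 after adjustment. A pair could therefore pass only if many others reached that p too, and the count cannot show that relations were absent. At an unadjusted permutation p of 0.05 there were 41 of the 560 pairs (7.32%, against 6.69% of all). For single scores that count was 7 of 40 with the neuron score (17.5%, against 8.53% of all genes), 9 with the marginal cell score (22.5%, against 15.5%) and 0 with the hair cell score (against 3.63%). With the strial intermediate cell score there were 8 (20.0%, against 13.4%). The Schwann cell and pendrin-list scores had 6 each (15.0%, against 10.2% and 9.03%). Every remaining score had 0 or 1.

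**Figure D3:**
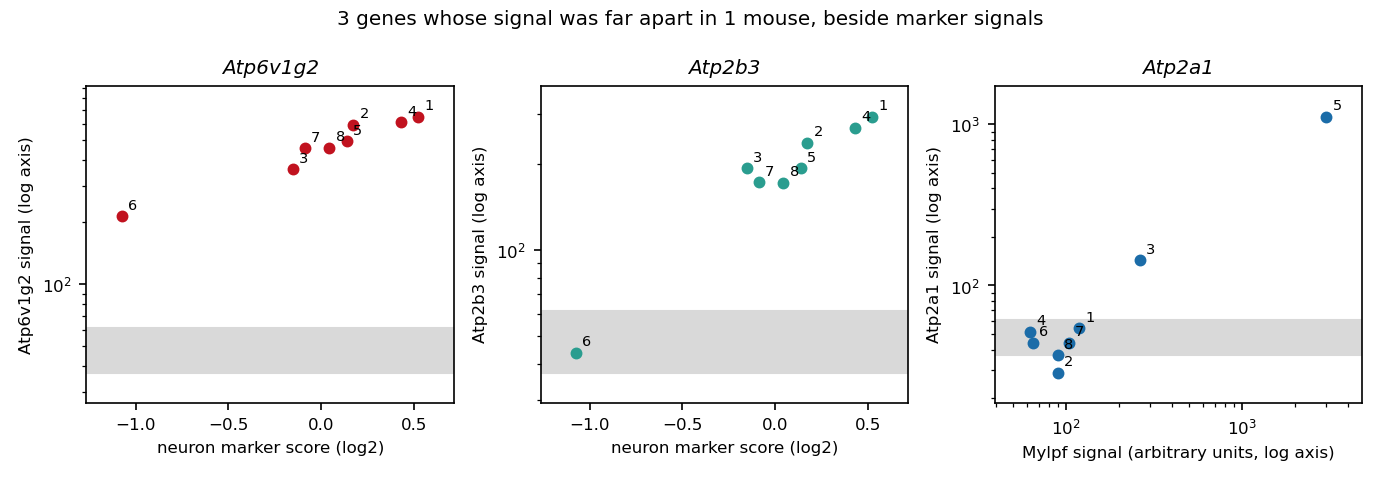
Signals of Atp6v1g2 and Atp2b3 (log axes) against the neuron marker score, and of Atp2a1 against the signal of Mylpf (both log axes), with 1 numbered point per mouse and a grey band over the array thresholds. Mouse 6 is lowest at 213.6 and 43.8, and mouse 5 has 1112.2 for Atp2a1 where Mylpf has 3034.5.

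Mouse 1 was highest for 20 of the 40 detected genes, against 33.4% of all detected genes, and lowest for 8 (20.0%), against 23.9%. Mouse 6 was lowest for 8 (20.0%), against 12.3%. Within the V-ATPase the highest signal was in mouse 1 for 11 of 16 subunits and the lowest in mouse 6 for 6. Atp6v0a1, for example, had 1223.6 in mouse 1 and 685.6 to 991.9 in the others, and Atp6v0d1 had 3275.5 in mouse 1 and 2261.0 to 2827.6 in the others. The mean pairwise correlation across mice was 0.22 for the V-ATPase subunits, 0.06 for all 40 genes, -0.01 for the flippases and 0.02 for all detected genes. It is a description, since all genes share the arrays, and it was 0.028 when each gene was read as the mean of all its probe sets. Over the 82 detected probe sets, 31 were highest in mouse 1 (37.8%, against 30.4% of all) and 21 lowest (25.6%, against 26.1%). In 6 of 23 genes with at least 2 detected probe sets, 1 probe set was highest and another lowest in mouse 1 (26.1%, against 19.8% of 5204 genes): Atp2a2, Atp2b1, Atp6v0a2, Atp6v0b, Atp6v1a and Atp6v1e1. In Atp2a2 the probe set highest in mouse 1 had 3011.1 there and 1748.5 to 2921.8 in the others, while the one lowest in mouse 1 had 325.4 there and 621.2 to 977.4 in the others. The Gapdh 3′/5′ ratio, a sign of RNA quality and amplification, was highest in mouse 1 at 1.54 and lowest in mouse 6 at 1.39, and that of actin was 2.03 in mouse 1 and 1.86 to 2.23 over all mice; their part in these values was not tested. Some marker lists stood apart in the same mice. Mouse 1 was highest for 7 of 14 neuron, 4 of 5 Schwann cell, 5 of 9 marginal cell and 4 of 5 pendrin-list markers, and mouse 6 for 5 of 7 central nervous system markers. Of those pendrin-list markers Rhcg, at 14.3, was below background. So was Olig2, at 33.3 in mouse 6, among those central nervous system markers. Other lists differed: mouse 1 was highest for 1 and lowest for 3 of 14 hair cell markers. For 10 fibrocyte markers these counts were 4 and 3, and for 14 muscle markers 0 and 3. Mog, of central myelin, had 314.5 in mouse 1 and 355.8 in mouse 6, against 2.5 to 28.9 in the others. Gfap, of astrocytes, had 805.2 and 1292.3 there, against 122.0 to 414.5 in the others. Not all genes of that list went this way. Pcp2 was highest in mouse 7 at 1152.9, and Calb1 was highest in mouse 1 at 279.2 but lowest in mouse 6 at 101.7. The part of the cells of these lists in the V-ATPase values was not tested.

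For the 23 genes with at least 2 detected probe sets, the 2 brightest were compared across mice, with _x_at probe sets, which can bind related transcripts, ranked after all others. This rank changed the pair for Atp9a, Atp10a and Atp6ap2. The correlation of log2 signals was tested one-sided by exact permutation with adjustment over 5204 genes. Agreement passed for 3 of the 23, and for 7.49% of all genes tested. For Atp6v1b2, the B subunit, r was 0.94 and rho 0.98 (exact permutation p = 7.44e-05, adjusted 0.0161), and r was 0.92 without mice 1 and 6. For Atp13a2 r was 0.77 and rho 0.98 (exact permutation p = 7.44e-05, adjusted 0.0161), and r was 0.71 without mice 1 and 2. For Atp7a r was 0.95 and rho 0.81 (exact permutation p = 0.00198, adjusted 0.0361), and r was 0.59 without mice 1 and 8. The Atp7a call was lost when mouse 1, 2, 4, 5, 7 or 8 was left out, with an adjusted permutation p of 0.144 and r of 0.80 without mouse 1, and by rank correlation (adjusted permutation p = 0.108). The calls of Atp6v1b2 and Atp13a2 were lost without mouse 1 (adjusted permutation p = 0.0535 each) and without mouse 2 (0.0507 and 0.0525). Both Atp6v1b2 probe sets were highest in mouse 1, at 1963.6 and 1332.7, and lowest in mouse 6, at 1205.8 and 874.6.

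Over the 23 genes r was above 0 in 15 and its median was 0.12, against 0.31 over all 5204 genes. It was lowest in 5 genes, at -0.44 for Atp2b1, -0.55 for Atp6v1a, -0.59 for Atp11a, -0.66 for Atp9a and -0.74 for Atp6v0a2. The sign was not stable in 2 of them: r was 0.71 without mice 1 and 4 for Atp6v0a2, and 0.39 without mice 1 and 5 for Atp2b1. For Atp9a the pair held a dim probe set (94.4 ± 14.3), and its 2 brightest, 1 of them an _x_at probe set, had r = 0.96. In Atp6v1a the brightest probe set had its highest signal in mouse 1 (5332.7) and the second its lowest there (1435.9, against 1838.7 to 2210.0 in the others). For such genes the order of the mice depends on the probe set read.

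**Figure D4:**
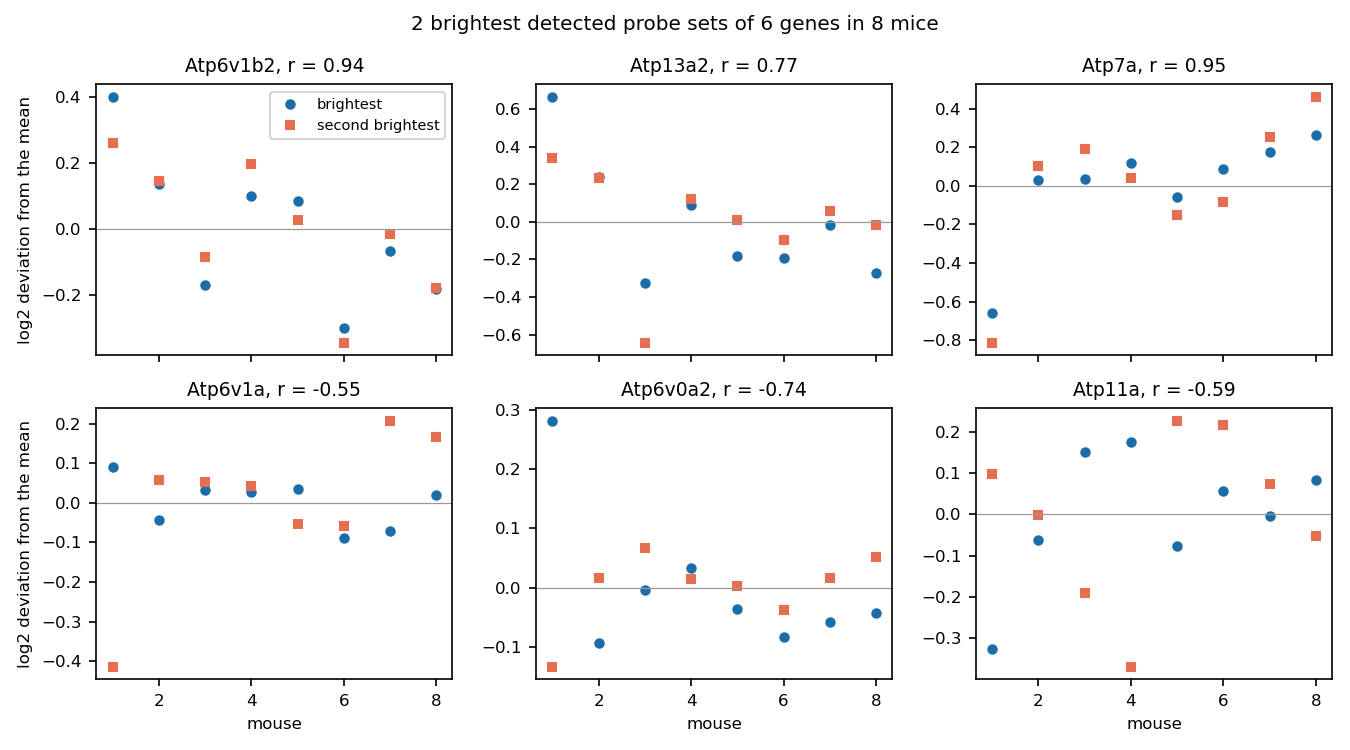
Deviation of log2 signal from its mean over 8 mice for the brightest (circles) and second brightest (squares) detected probe set of 6 genes. In the upper row (Atp6v1b2, Atp13a2, Atp7a) both follow each other, at r = 0.94, 0.77 and 0.95; in the lower row (Atp6v1a, Atp6v0a2, Atp11a) they diverge, at r = -0.55, -0.74 and -0.59.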

How the data were processed

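The deposited values are linear intensities per probe set, made by the authors with MAS5 (version not stated) per the submitters' processing notes. Arrays had been scaled before deposit: trimming 2% at either end left a mean intensity of 500.0 on all 8. Labelling used the Ovation kits, per the labels' protocols. The file held 0 other sample columns and no array was left out.

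Genes were named from the platform annotation, and all 124 member probe sets matched current symbols by Entrez identifier (0 changed); 932 probe sets naming several genes and 9211 naming none were not used. Each gene's level came from its brightest probe set on average, _x_at probe sets only where there was no other, as log2 with signals under 1 set to 1. Members, gene lists and tests were chosen with earlier results of these data known. Named are, per class, the 3 brightest detected members, the most variable, up to 3 not detected, all members above background on some arrays, isoforms together, and genes passing a test; Atp13a1, Atp11a and other single cases beyond this were added after their values were seen, as was the choice of motifs and printed promoters.

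Probe set agreement (one-sided) and relation to 14 marker scores (two-sided) were tested by exact permutation over 40320 pairings, Benjamini-Hochberg over all genes, threshold 0.05; p-values take mice as units. The tests were tested on simulated data first, with fewer genes than in the data. Alternatives were quantile and median scaling, a pseudocount of 32, averaging all probe sets of a gene, the 90th and 99th percentile thresholds, 4 of 8 arrays, other probe set pairs, Spearman and leaving out each mouse. Computations ran in Python 3.11.15 (scipy 1.17.1, numpy 2.4.6, pandas 2.3.3), figures in matplotlib 3.10.9.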

Additional observations from a re-analysis of the deposited data

Results flagged for a closer look

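In 11 of the 54 genes the highest or lowest mouse stood apart from the other 7 by Dixon's criterion (gap over range above 0.526) on the log2 scale, where chance gives about 1 in 20. Among detected genes that was 8 of 40 (20.0%), against 12.5% of all detected genes. On the linear scale, also examined, the genes that stood apart differed in part.

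Mouse 1 stood apart in 5 genes. It was highest for Atp2b1 at 4397.5, for Atp6v0a2 at 1912.8 against 1475.9 to 1610.9 in the others, and for Atp6v1f at 4625.9 against 3751.4 to 4068.0. It was lowest for Atp7a at 1180.3 and for Atp10d at 218.2 against 317.1 to 399.6. Of 3 detected probe sets of Atp2b1, 2 were highest in mouse 1 and 1 was lowest there, at 2701.5 against 2916.7 to 3301.7. Of 3 for Atp6v0a2, 1 was highest and 1 lowest there, the latter at 414.9 against 443.1 to 476.7. Atp6v1f and Atp10d were each read by 1 probe set only.

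Mouse 5 stood apart in 3 genes, highest for Atp2a1 at 1112.2 and for Atp6v1c2 at 514.9, and lowest for Atp2c1 at 2535.3. The other 2 detected probe sets of Atp2c1 were lowest in mouse 1, at 1923.0 and 52.3, with 2049.8 and 127.7 in mouse 5. Mouse 6 was lowest for Atp2b3 at 43.8. Mouse 4 was lowest for Atp13a1 at 225.8, and highest for Atp6v0a4 at 17.1, which is below background on every array.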

How the results depend on the processing

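The 40 detected genes became 39 with the mean of all probe sets (Atp8a2 was lost) and 44 when 4 of 8 arrays sufficed, the other settings lying between. Their levels depended more on the probe sets read. With the mean of all probe sets, the mean log2 signal of 28 of the 40 moved by at least the gene's SD between mice. That number was 1 with log2 of the signal plus 32 and 0 in each other setting compared. The levels given are those of the brightest probe set. The count with an SD over 0.5, 1 as reported, was 0 with median scaling, 0 with log2 of the signal plus 32 and 3 when 4 of 8 arrays sufficed (Atp2a1, Atp2b3 and Atp6v1g2), and 0 to 1 when a mouse was left out, 0 without mouse 6. The mean correlation of V-ATPase subunits, 0.22, was 0.18 with quantile normalization, 0.028 with the mean of all probe sets, and 0.15 (without mouse 1) to 0.26 (without mouse 8). The 3 genes with agreeing probe sets became 6 with median scaling, 6 with the 99th percentile threshold, 8 with the best agreeing pair and 1 with the worst, and 0 (without mouse 1 or mouse 2) to 4 when a mouse was left out. The best and worst pairs were picked by the r that was then tested. Their p-values are therefore biased, low for the best pair and high for the worst, and their counts are no separate evidence. The share called among all genes tested, 7.49%, was 10.6% with median scaling, 11.2% with the 99th percentile, 0.824% without mouse 1 and 0% without mouse 2. When any other mouse was left out it was 2.45% to 4.01%. With 7 mice there are fewer pairings, as many whichever mouse is left out. The cause of the lower shares was not tested. The adjusted permutation p over these settings was 0.00875 to 0.0535 for Atp13a2, 0.00875 to 0.131 for Atp6v1b2 and 0.0216 to 0.144 for Atp7a. The lower ends came from the setting with the best agreeing pair, and 0.131 from that with the worst. The relation of Atp6v1g2 to the neuron score had an adjusted permutation p of 0.216 to 0.706, and 0 relations passed in any setting run. With so few pairings of mice for so many pairs of gene and score, that count cannot show that relations were absent. Among the results recomputed under these settings no value changed sign. Without the 2 mice farthest from the median, r between probe sets changed sign for Atp6v0a2, Atp2b1, Atp6v0a1 and Atp2c1. No paired analysis was possible because all samples form 1 group. Signal over background limits the dim genes: for those above background on some arrays only, differences between mice lie partly at the threshold.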
